A study of Mus musculus with 15 samples.

Results

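The tumor necrosis factor (TNF) superfamily is the set of TNF-type ligands, and the TNF receptor superfamily is a set of related receptors, most of which bind them. Members were taken by symbol: every *Tnfsf* or *Tnfrsf* gene with a number and at most 1 letter after it, together with *Tnf*, *Lta*, *Ltb*, *Ltbr*, *Fas*, *Fasl*, *Cd40*, *Cd27*, *Cd70*, *Eda*, *Edar*, *Eda2r* and *Ngfr*. This gave 44 of 35880 gene symbols, 17 ligands and 27 receptors. They were described in Lewis lung carcinoma cells (LL2/Luc2), a mouse lung tumor line that carries luciferase. RNA was sequenced from the parental line (LL2 WT), from 3 lines without *Keap1* (*KEAP1* KO #1, #2 and #3) and from 1 line without *Nfe2l2*, the gene of the transcription factor NRF2 (*NRF2* KO), in 3 biologic replicates each. KEAP1 marks NRF2 for degradation, so *KEAP1* KO lines serve as the NRF2-active arm and *NRF2* KO as the NRF2-inactive arm. Each knockout line grew from 1 GFP-positive cell sorted after a plasmid with Cas9, GFP and a guide RNA had been delivered, and LL2 WT is the parental population, with no mock-edited clone beside it. With 1 *NRF2* KO clone, the effect of the knockout and the nature of the founding cell cannot be told apart. All lines were split from confluent dishes and grown in complete medium for the same time before RNA was taken.

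Most ligands of the family are made as trimeric membrane proteins, and several are cut from the surface to a soluble form. Receptors with a death domain, such as FAS, TNFRSF1A and TNFRSF10B, can start caspase-driven death, while others recruit TRAF adaptors and lead to NF-kB and JNK signaling. Decoy receptors bind a ligand without passing on the signal. In tumors the family is known for controlling killing by T cells and NK cells, and survival and inflammatory output of the tumor cell itself.

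The deposited values are CPM, each gene's share of a sample's counts scaled to a common total, summing to between 998941 and 999306 per sample over the gene symbols, and the reads behind each sample are unknown. At the average depth in the study's methods 3 reads equal 0.1 CPM, and this served as the floor, for counting error only. *Keap1* lay between 22.0 and 24.0 CPM in LL2 WT and between 3.78 and 12.5 CPM in the 9 *KEAP1* KO samples, below the parental line in all of them. By line its mean was 11.8 CPM in #1, 5.53 CPM in #2 and 5.58 CPM in #3. The largest difference between these lines was 1.12 on the log2 scale (adjusted p from limma's F test = 0.00458). *Nfe2l2* lay between 170 and 208 CPM in LL2 WT, between 102 and 146 CPM in *NRF2* KO and between 87 and 124 CPM in *KEAP1* KO, so its level alone does not mark the *NRF2* knockout. The NRF2 target *Nqo1* lay between 26.1 and 36.5 CPM in LL2 WT, between 253 and 545 CPM in *KEAP1* KO and between 8.55 and 11 CPM in *NRF2* KO. The labelled origin was checked against markers. Of 5 lung epithelial markers *Scgb1a1* was at 0 in all samples and the sum of all 5 was at most 1.18 CPM, so the lung identity of the line does not show in them. *Sftpb* among them rose in #1, #2 and #3 (1.66, 1.92 and 2.54 on the log2 scale, adjusted p from limma = 0.0167, 0.00533 and 0.000827). Its line means were at most 0.682 CPM. Of 5 mesenchymal markers the sum ran from 3450 to 5430 CPM in the parental samples, from 1530 to 2030 CPM with *Keap1* knocked out and from 3130 to 4290 CPM in *NRF2* KO, mostly *Vim*. Its lower members did not follow *Vim* in every line: *Pdgfrb* rose in #1 (2.28 on the log2 scale, adjusted p = 0.00153) and fell in #2 and #3 (−2.82 and −2.57, adjusted p = 0.000197 and 0.000378). The sum of 5 epithelial markers was 592 to 667 CPM in LL2 WT, 299 to 439 CPM in *KEAP1* KO #1 and 386 to 639 CPM in the other lines, mostly *Krt18* and *Krt8*, with *Epcam* at most 0.0485 CPM. Within it *Krt18* changed by −0.87, −0.39 and −0.28 on the log2 scale in #1, #2 and #3. *Krt8* was lower in #1 (−0.44, adjusted p = 0.0318) and higher in #2 and #3 (0.76 and 0.43, adjusted p = 0.000971 and 0.0274). The sum of 3 endothelial markers was 2.47 to 7.48 CPM, and *Cdh5* among them rose in #2 and #3 (2.92 and 3.45, adjusted p = 0.000338 and 8.87e-05). Of 7 immune markers *Adgre1* was at 0 in all samples and the sum was 0.19 to 2.7 CPM, with its highest sample in *NRF2* KO. The part of these marker differences in the results below was not tested. Bulk RNA cannot tell fewer cells with a transcript from less of it per cell.

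Only 17 of the 44 members reached an average of 1 CPM in any line, 2 ligands and 15 receptors. Of these 17, 15 did so in LL2 WT, 15 in *KEAP1* KO #1, 13 in #2, 14 in #3 and 14 in *NRF2* KO, and 10 did so in all lines. Of the ligands these were *Tnfsf9* (4-1BBL, which costimulates T cells through TNFRSF9) and *Tnfsf12* (TWEAK, the ligand of TNFRSF12A). *Tnf* itself was at 0 in 14 samples and at 0.0919 CPM in replicate 3 of *KEAP1* KO #1, under the floor. *Fasl*, the ligand of FAS, was at most 0.169 CPM, *Tnfsf10* (TRAIL) at most 0.0966 CPM and *Tnfsf11* (RANKL) at most 0.0161 CPM. *Cd70*, *Edar*, *Tnfrsf11b* and *Tnfsf14* were listed at 0 in all 15 samples. The remaining 23 members under 1 CPM in every line were *Cd27*, *Cd40*, *Eda*, *Fasl*, *Lta*, *Ltb*, *Tnf*, *Tnfrsf13b*, *Tnfrsf13c*, *Tnfrsf17*, *Tnfrsf19*, *Tnfrsf1b*, *Tnfrsf25*, *Tnfrsf4*, *Tnfrsf8*, *Tnfsf10*, *Tnfsf11*, *Tnfsf13*, *Tnfsf13b*, *Tnfsf15*, *Tnfsf18*, *Tnfsf4* and *Tnfsf8*. The line thus had transcripts for many receptors and few ligands.

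Levels of different genes were compared per length, as CPM per kb of the longest coding transcript (GENCODE M21). In LL2 WT the highest was *Tnfrsf12a*, the TWEAK receptor, at 83.3 CPM per kb. It was followed by *Tnfrsf1a*, the main receptor of TNF, at 34.3 CPM per kb and by *Ltbr*, the lymphotoxin beta receptor of the non-canonical NF-kB route, at 16.7 CPM per kb. *Tnfrsf23* (8.51 CPM per kb), *Tnfrsf10b* (8.2), *Tnfsf12* (6.48), *Tnfrsf22* (5.62), *Tnfsf9* (4.33), *Eda2r* (4.32), *Tnfrsf21* (3.71), *Tnfrsf14* (2.27) and *Tnfrsf18* (2.00) came next. *Fas*, *Tnfrsf11a*, *Tnfrsf9*, *Ngfr* and *Tnfrsf26* were under 1 CPM per kb, from 0.553 down to 0.314. Neighbors in this order often overlap within their replicate spread, and *Tnfrsf12a* ranged from 51.0 to 117 CPM in LL2 WT.

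**Figure D1:**
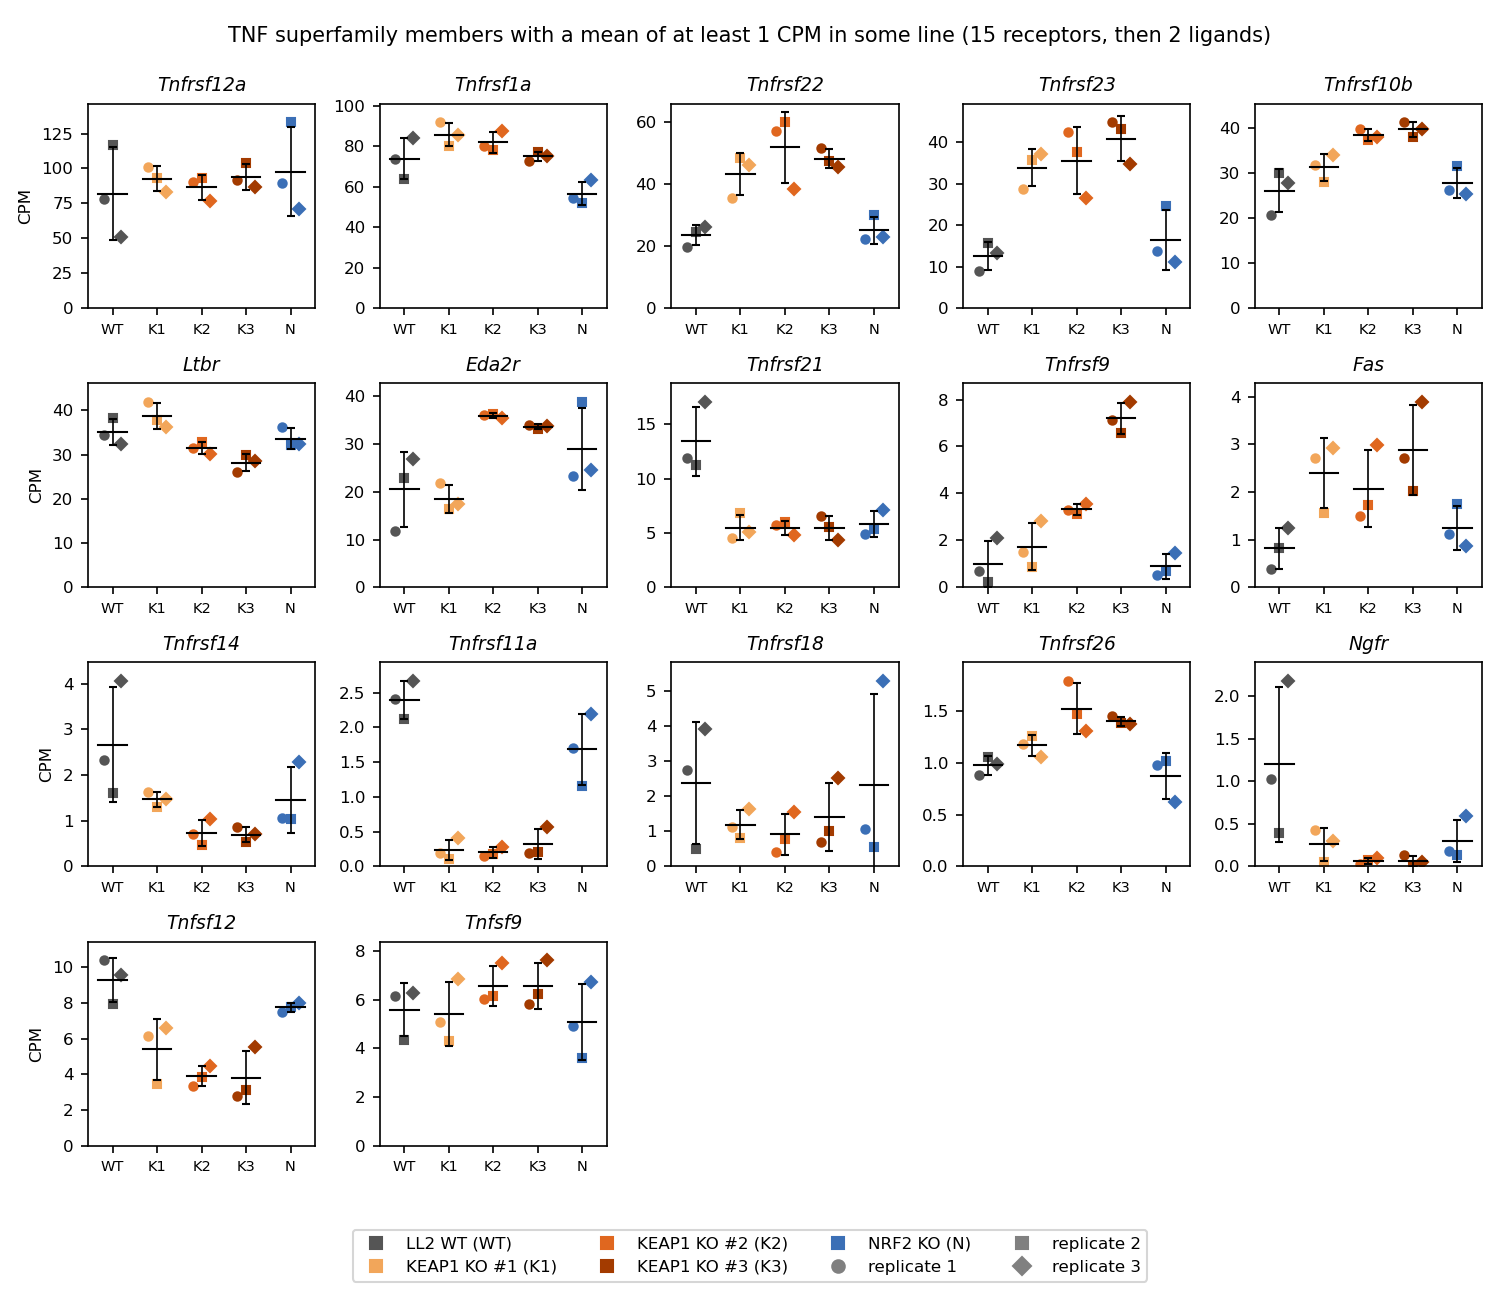
CPM of the 17 members with a mean of at least 1 CPM in some line, in each of the 15 samples (linear axes from 0, 1 panel per gene). Marker shape gives the replicate number, the long bar the mean and the thin bar the SD (n = 3). *Tnfrsf11a* and *Tnfrsf21* sit lower in the *KEAP1* KO lines than in LL2 WT, *Tnfrsf22*, *Tnfrsf23* and *Fas* higher, and replicate 3 is the highest sample of every line for *Tnfrsf11a*, *Tnfrsf18*, *Tnfrsf9* and *Tnfsf9*.

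Each knockout line was compared with LL2 WT to ask how the family's transcripts differ when KEAP1 or NRF2 is lost. A filter on the sum over samples (at least 3 CPM) kept 14652 genes, among them 23 members (4 ligands and 19 receptors). The other 21 members were too low to test. A member is called when its Benjamini-Hochberg adjusted p from limma, over all 14652 genes, is under 0.05 and its absolute log2 fold change of CPM + 0.1 is over 1. The 4 comparisons share the same 3 LL2 WT samples, so their results are set side by side and not counted as independent.

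In *KEAP1* KO #1, 5 of 23 members tested were called, against a background of 8.54% of all genes tested. *Cd40*, *Fas* and *Tnfrsf23* rose (background 4.55%) and *Tnfrsf11a* and *Tnfrsf21* fell (background 3.99%). In *KEAP1* KO #2, 9 of 23 were called against a background of 13.7%. *Fas*, *Tnfrsf22*, *Tnfrsf23* and *Tnfrsf9* rose (background 5.94%), and *Ngfr*, *Tnfrsf11a*, *Tnfrsf14*, *Tnfrsf21* and the ligand *Tnfsf12* fell (background 7.75%). In *KEAP1* KO #3 the same 9 members were called in the same directions, against a background of 13.4% (6.09% higher, 7.34% lower). In *NRF2* KO 1 of 23 was called, *Tnfrsf21*, which fell (background 0.464%, of which 0.375% lower and 0.0887% higher). Over the members tested the median log2 fold change was 0.14, 0.15 and 0.03 in *KEAP1* KO #1, #2 and #3 and −0.16 in *NRF2* KO, beside 0.11, 0.03, 0.02 and 0.04 over all genes tested. Called members of the family went both ways. *Fas* and *Tnfrsf23* were called higher in all 3 *KEAP1* KO lines (2 of 23 members, background 2.86%) and *Tnfrsf11a* and *Tnfrsf21* lower in all 3 (2 of 23, background 2.63%).

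**Figure D2:**
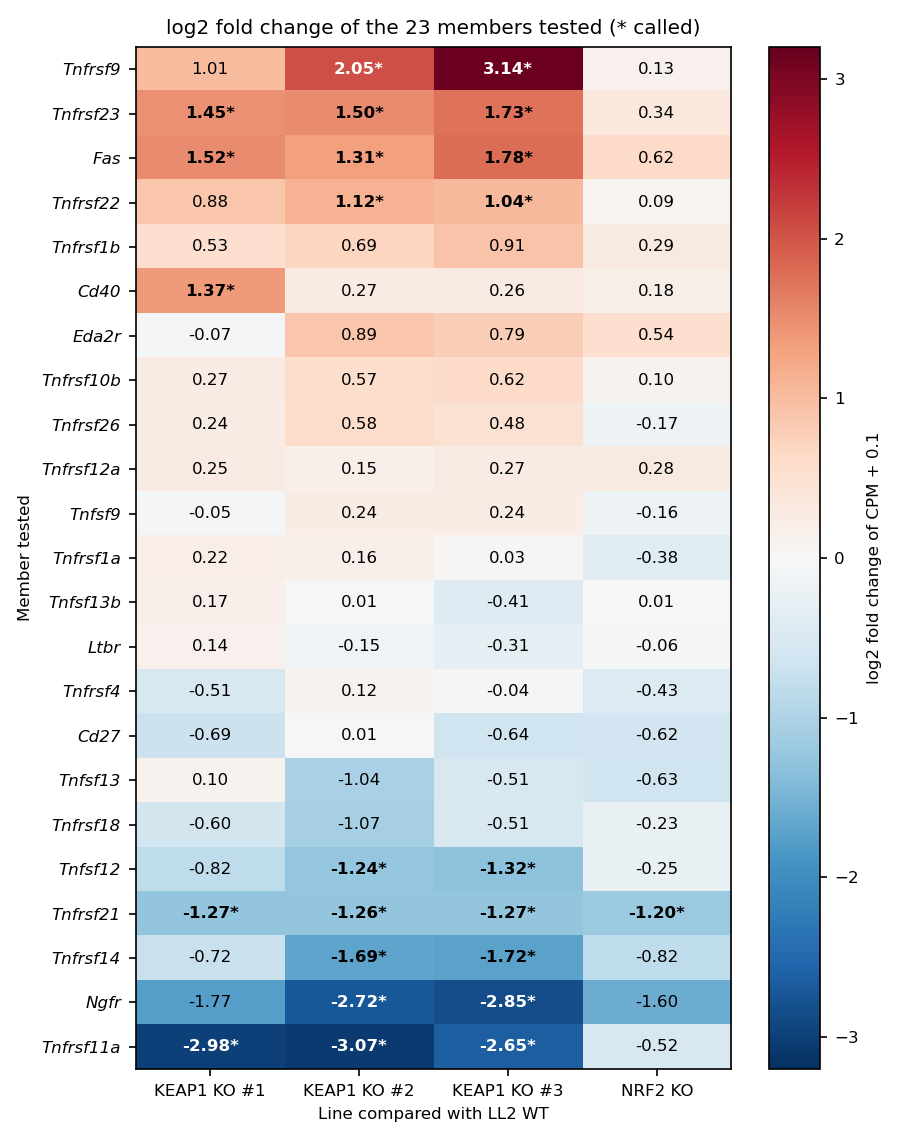
Log2 fold change of CPM + 0.1 against LL2 WT for the 23 members tested (vertical axis) in the 4 knockout lines (horizontal axis), red for higher and blue for lower. An asterisk marks a called value; *Tnfrsf9*, *Tnfrsf23* and *Fas* head the list with the highest mean over the *KEAP1* KO lines, and *Tnfrsf11a* closes it with −2.98, −3.07 and −2.65.

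Before the values, the start regions of the 5 receptors called in all 3 *KEAP1* KO lines or between *KEAP1* KO and *NRF2* KO are shown, since these are the members with the broadest differences. They are the 250 bases before and 50 bases after each start from RefSeq (GRCm38.p6), written 5′ to 3′ on the gene's strand. Capitals mark matches, on either strand, to 3 motifs: TGACNNNGC (core of the antioxidant response element bound by NRF2), TGANTCA (AP-1) and the kappa B site bound by NF-kB (GGG and TTTCC with any 2 bases between them). The first and second motifs can overlap. A promoter entry was found for 35 of the 44 members, *Tnfrsf22* and *Tnfrsf26* not among them.
*Fas* (chr19:34290409-34290708, plus strand): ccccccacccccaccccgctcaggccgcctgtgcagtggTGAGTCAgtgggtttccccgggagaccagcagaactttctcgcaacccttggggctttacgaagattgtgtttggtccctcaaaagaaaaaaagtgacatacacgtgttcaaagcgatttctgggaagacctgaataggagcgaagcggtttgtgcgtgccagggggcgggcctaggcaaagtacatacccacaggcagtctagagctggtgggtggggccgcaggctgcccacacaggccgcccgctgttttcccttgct
*Tnfrsf11a* (chr1:105780473-105780772, plus strand): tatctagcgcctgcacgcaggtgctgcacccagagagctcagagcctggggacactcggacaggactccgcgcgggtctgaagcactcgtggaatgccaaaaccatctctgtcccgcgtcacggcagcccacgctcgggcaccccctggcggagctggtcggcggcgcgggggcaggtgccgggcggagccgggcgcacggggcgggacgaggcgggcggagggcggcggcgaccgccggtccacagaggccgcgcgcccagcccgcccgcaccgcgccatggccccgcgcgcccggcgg
*Tnfrsf21* (chr17:43016305-43016604, plus strand): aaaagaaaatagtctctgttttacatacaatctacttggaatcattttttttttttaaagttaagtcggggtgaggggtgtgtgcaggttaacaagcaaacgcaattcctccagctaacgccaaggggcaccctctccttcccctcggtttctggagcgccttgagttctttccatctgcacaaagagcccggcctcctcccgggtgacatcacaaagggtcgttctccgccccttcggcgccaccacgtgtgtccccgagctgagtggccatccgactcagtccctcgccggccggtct
*Tnfrsf23* (chr7:143685826-143686125, minus strand): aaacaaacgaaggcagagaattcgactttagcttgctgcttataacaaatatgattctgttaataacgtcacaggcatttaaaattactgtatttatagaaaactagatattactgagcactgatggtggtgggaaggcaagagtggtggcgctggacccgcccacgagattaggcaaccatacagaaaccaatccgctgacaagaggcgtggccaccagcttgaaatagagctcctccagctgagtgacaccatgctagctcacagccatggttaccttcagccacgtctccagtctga
*Tnfrsf9*, upstream start (chr4:150919905-150920204, plus strand): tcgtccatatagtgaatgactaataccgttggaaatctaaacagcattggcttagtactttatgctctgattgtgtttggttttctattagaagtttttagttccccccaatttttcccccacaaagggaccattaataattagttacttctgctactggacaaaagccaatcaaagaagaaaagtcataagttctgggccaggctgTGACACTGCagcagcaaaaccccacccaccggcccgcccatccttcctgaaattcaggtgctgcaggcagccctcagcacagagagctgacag
*Tnfrsf9*, downstream start (chr4:150927749-150928048, plus strand): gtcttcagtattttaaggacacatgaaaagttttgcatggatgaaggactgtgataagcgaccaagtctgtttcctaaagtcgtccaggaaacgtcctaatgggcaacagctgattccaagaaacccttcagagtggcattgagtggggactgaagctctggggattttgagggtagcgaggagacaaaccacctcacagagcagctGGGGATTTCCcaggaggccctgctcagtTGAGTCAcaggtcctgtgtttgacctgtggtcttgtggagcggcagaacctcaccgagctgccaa

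*Fas* had 1 AP-1 match, TGAGTCA, from −211 to −205 of its start. *Tnfrsf9* had a match to the antioxidant response element core, TGACACTGC, from −43 to −35 of its upstream start. At its downstream start it had a kappa B match, GGGGATTTCC, from −43 to −34, and an AP-1 match, TGAGTCA, from −15 to −9. The windows of *Tnfrsf11a*, *Tnfrsf21* and *Tnfrsf23* held none of the 3 motifs. Over 32851 promoters of the same length 12.4% held the antioxidant response element core, 7.81% the AP-1 motif and 1.63% the kappa B motif. Of the 35 members with an entry, 8 held the first (*Eda2r*, *Lta*, *Tnfrsf13b*, *Tnfrsf25*, *Tnfrsf8*, *Tnfrsf9*, *Tnfsf13b* and *Tnfsf18*), 6 the second and 3 the last. Some members have more than 1 promoter. Counted by promoter, as the shares over all promoters are, 8, 7 and 3 of 39 held them. A match is a description of letters and no evidence of binding, and no 2 matches overlap in the windows printed.

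*Tnfrsf11a* encodes RANK, the receptor of RANKL, known for osteoclast formation and mammary gland growth (chr1:105780718-105847981, plus strand, GRCm38.p6). In LL2 WT its 3 samples had 2.41, 2.12 and 2.67 CPM. *KEAP1* KO #1 had 0.190, 0.114 and 0.402 CPM, *KEAP1* KO #2 had 0.147, 0.174 and 0.286 CPM and *KEAP1* KO #3 had 0.199, 0.208 and 0.571 CPM. The 9 *KEAP1* KO samples all lay below every LL2 WT sample and below every *NRF2* KO sample, which had 1.70, 1.16 and 2.19 CPM. Log2 fold changes were −2.98, −3.07 and −2.65 in #1, #2 and #3, each with a standard error of 0.40 (adjusted p = 0.00022, 9.74e-05 and 0.000279). The value was −0.52 in *NRF2* KO (adjusted p = 0.697). The transcript of its ligand *Tnfsf11* was under the floor throughout. The calls in the *KEAP1* KO lines held under every alternative run. Replicate 3 was the highest sample in all 5 lines.

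*Tnfrsf21* encodes death receptor 6 (chr17:43016555-43089189, plus strand). LL2 WT had 11.9, 11.3 and 17.1 CPM. *KEAP1* KO #1 had 4.54, 6.83 and 5.13 CPM, #2 had 5.70, 5.98 and 4.77 CPM, #3 had 6.56, 5.56 and 4.36 CPM and *NRF2* KO had 4.87, 5.37 and 7.13 CPM. All 12 knockout samples lay below every LL2 WT sample, and the 4 knockout lines averaged between 5.49 and 5.79 CPM. Against LL2 WT it changed by −1.27, −1.26 and −1.27 on the log2 scale in the *KEAP1* KO lines (standard error 0.22, adjusted p = 0.00143, 0.000923 and 0.000834). In *NRF2* KO the change was −1.20 (adjusted p = 0.0254). *Tnfrsf21* was the 1 member called in both kinds of knockout, and the mean of the *KEAP1* KO lines differed from *NRF2* KO by −0.07 (95% interval −0.46 to 0.32, adjusted p = 0.818). What these lines share, apart from LL2 WT as the control, is the delivery of a plasmid and growth from 1 sorted cell, whose part cannot be told apart from the knockouts. The highest sample was replicate 3 of LL2 WT. With replicate 3 of every line left out, the calls in *KEAP1* KO #2 (−0.98), #3 (−0.93) and *NRF2* KO were lost. The call in *NRF2* KO was lost under 7 of 25 alternatives, among them quantile normalization, only the lines compared in the model, and leaving out LL2 WT replicate 1 or 3 or *NRF2* KO replicate 1 or 2. Over the alternatives its log2 fold change ran from −1.35 to −1.01 and its adjusted p from 0.0125 to 0.29.

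*Tnfrsf22*, *Tnfrsf23* and *Tnfrsf26* are neighbors in 78.2 kb of chromosome 7 (chr7:143607659-143685872, all on the minus strand). *Tnfrsf22* and *Tnfrsf23* encode mouse decoy receptors for TRAIL without a death domain. *Tnfrsf23* had 8.85, 15.6 and 13.2 CPM in LL2 WT. It stood at 28.7, 35.7 and 37.2 CPM in *KEAP1* KO #1, 42.4, 37.6 and 26.6 CPM in #2 and 44.8, 43.2 and 34.7 CPM in #3. Every *KEAP1* KO sample was above every LL2 WT sample and above the *NRF2* KO samples, which had 13.8, 24.6 and 11 CPM. It rose by 1.45, 1.5 and 1.73 on the log2 scale (standard error 0.28, adjusted p = 0.00276, 0.00146 and 0.000525), against 0.34 in *NRF2* KO (adjusted p = 0.726).

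*Tnfrsf22* had 19.8, 24.5 and 26.0 CPM in LL2 WT, against 22.1, 30 and 22.9 CPM in *NRF2* KO. It had 35.5, 48.2 and 46.0 CPM in *KEAP1* KO #1, 56.9, 59.8 and 38.5 CPM in #2 and 51.4, 47.3 and 45.4 CPM in #3, again above all LL2 WT and *NRF2* KO samples. It rose by 1.12 and 1.04 on the log2 scale in #2 and #3 (standard error 0.18, adjusted p = 0.000515 and 0.000876). The value in #1, 0.88 (adjusted p = 0.00422), is under the size threshold, and *NRF2* KO had 0.09 (adjusted p = 0.902). The call in #3 was lost with quantile normalization, without LL2 WT replicate 1 and without *KEAP1* KO #3 replicate 1. *Tnfrsf26*, a related receptor with a far lower level, had 0.880, 1.06 and 0.989 CPM in LL2 WT and 1.06 to 1.79 CPM in the 9 *KEAP1* KO samples, and was not called in any comparison. Of the 31-base words in the transcripts of *Tnfrsf22* 38.5% also occur in other genes, most often in *Tnfrsf23*, and of those of *Tnfrsf23* 28.5% do, most often in *Tnfrsf22*, so the split between the pair is uncertain. Their sum does not depend on the split: it was 28.6 to 40.1 CPM in LL2 WT, 64.3 to 99.3 CPM in the *KEAP1* KO samples and 33.8 to 54.5 CPM in *NRF2* KO. The ligand of this pair, *Tnfsf10*, was under the floor in all samples, and the signaling TRAIL receptor *Tnfrsf10b* is described below.

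*Fas* encodes the death receptor of FAS ligand (chr19:34290666-34327772, plus strand). LL2 WT had 0.377, 0.827 and 1.25 CPM. *KEAP1* KO #1 had 2.71, 1.55 and 2.92 CPM, #2 had 1.5, 1.72 and 2.99 CPM and #3 had 2.72, 2.02 and 3.90 CPM. These 9 samples lay above all LL2 WT samples, and *NRF2* KO with 1.11, 1.75 and 0.861 CPM overlapped both. *Fas* rose by 1.52, 1.31 and 1.78 on the log2 scale in the *KEAP1* KO lines (standard error 0.42, adjusted p = 0.0207, 0.0313 and 0.00635). The value in *NRF2* KO was 0.62 (adjusted p = 0.655), and the mean of the *KEAP1* KO lines was 0.92 above *NRF2* KO (adjusted p = 0.0678, not called). The levels are low. A pseudocount of 1 CPM ended the call in #1 (0.90) and #2 (0.75), as did having only the lines compared in the model. In #2 a pseudocount of 0.5 CPM (0.98) and no filter on low values ended it too. It was also lost in #1 without LL2 WT replicate 1, *KEAP1* KO #1 replicate 1 or #1 replicate 3, and in #2 without LL2 WT replicate 1, *KEAP1* KO #2 replicate 2 or #2 replicate 3. It held in #3 under every alternative run.

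**Figure D3:**
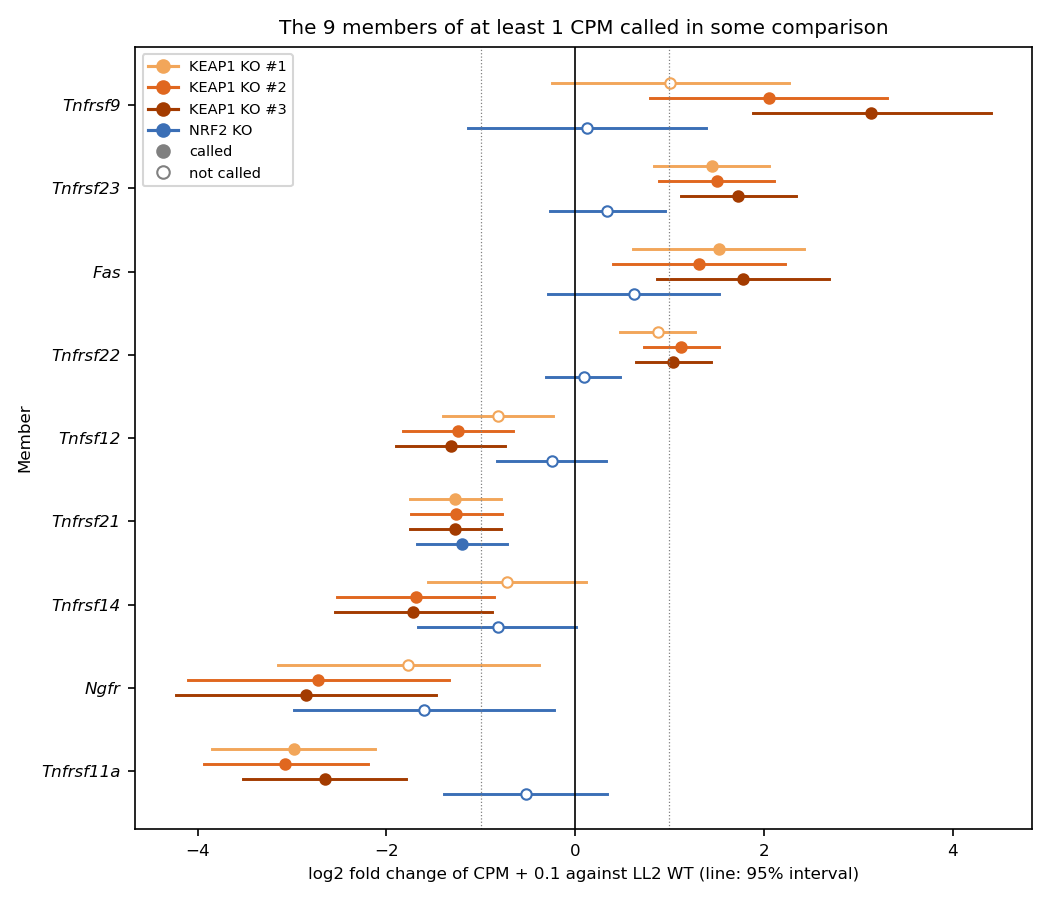
Log2 fold change of CPM + 0.1 against LL2 WT (horizontal axis) with its 95% interval for the 9 members of at least 1 CPM that were called in some comparison (vertical axis), by knockout line. Filled points are called and dotted lines mark the size threshold; *Tnfrsf21* has nearly the same value in all 4 lines, while the *NRF2* KO interval crosses 0 for all but *Tnfrsf21* and *Ngfr*.

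The other members called in *KEAP1* KO #2 and #3 were *Tnfrsf9*, *Tnfrsf14*, *Ngfr* and *Tnfsf12*. *Tnfrsf9* encodes 4-1BB (CD137), a costimulatory receptor best known on activated T cells. It had 0.692, 0.22 and 2.1 CPM in LL2 WT. It stood at 1.48, 0.877 and 2.83 CPM in *KEAP1* KO #1, 3.31, 3.1 and 3.54 CPM in #2, 7.11, 6.59 and 7.91 CPM in #3 and 0.504, 0.676 and 1.47 CPM in *NRF2* KO. Samples of #2 and #3 lay above all LL2 WT samples and did not overlap each other, whereas #1 overlapped LL2 WT. It rose by 2.05 in #2 and 3.14 in #3 on the log2 scale (standard error 0.58, adjusted p = 0.0171 and 0.00129). Neither #1, at 1.01 (adjusted p = 0.234), nor *NRF2* KO, at 0.13 (adjusted p = 0.961), was called. The call in #2 was lost without LL2 WT replicate 2, the lowest sample, and with only #2 and LL2 WT in the model. In #1 the value was 1.72 and called without LL2 WT replicate 3. *Camta1* overlaps *Tnfrsf9* on the other strand, and 0.329% of the 31-base words of *Tnfrsf9* occur in another gene. The ligand *Tnfsf9* was present in every sample at 3.60 to 7.62 CPM, with log2 fold changes from −0.16 to 0.24 over the 4 comparisons, none called.

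*Tnfrsf14* encodes HVEM, which binds LIGHT and the inhibitory receptor BTLA. It had 2.33, 1.60 and 4.06 CPM in LL2 WT. It stood at 1.63, 1.3 and 1.47 CPM in *KEAP1* KO #1, 0.702, 0.461 and 1.04 CPM in #2 and 0.856, 0.535 and 0.701 CPM in #3. Samples of #2 and #3 were below all LL2 WT samples, while *NRF2* KO with 1.05, 1.03 and 2.29 CPM overlapped LL2 WT. It fell in #2 (−1.69) and #3 (−1.72) on the log2 scale (standard error 0.39, adjusted p = 0.00504 and 0.0045). The values in #1 (−0.72, adjusted p = 0.195) and *NRF2* KO (−0.82, adjusted p = 0.452) were not called. For *Tnfrsf14* the mean of the *KEAP1* KO lines was −0.55 against *NRF2* KO (adjusted p = 0.226), also not called. *Ngfr* encodes the p75 neurotrophin receptor. It had 1.03, 0.389 and 2.18 CPM in LL2 WT, 0.432, 0.0506 and 0.299 CPM in #1, 0.0303, 0.0711 and 0.0963 CPM in #2, 0.129, 0 and 0.0475 CPM in #3 and 0.180, 0.134 and 0.587 CPM in *NRF2* KO. Samples of #2 and #3 lay below all LL2 WT samples, while #1 and *NRF2* KO overlapped them. Log2 fold changes were −1.77 in #1 and −1.60 in *NRF2* KO (adjusted p from limma = 0.0626 and 0.371), neither called. The mean of the *KEAP1* KO lines differed from *NRF2* KO by −0.84 (adjusted p = 0.27, not called). In #1 *Ngfr* was called under 5 of 24 alternatives. In #2 all samples were under the floor, so against the LL2 WT mean of 1.2 CPM it was at least 12-fold lower. Without LL2 WT replicate 3, the highest sample, it was at least 7.09-fold lower. The fitted log2 fold change of −2.85 in #3 (standard error 0.64, adjusted p = 0.00449) rests on values near the floor, and the calls in #2 and #3 were lost with a pseudocount of 1 CPM.

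*Tnfsf12* was the 1 ligand called. It had 10.4, 7.93 and 9.54 CPM in LL2 WT. It stood at 6.15, 3.44 and 6.62 CPM in *KEAP1* KO #1, 3.34, 3.84 and 4.46 CPM in #2, 2.79, 3.12 and 5.51 CPM in #3 and 7.48, 7.77 and 7.99 CPM in *NRF2* KO. The 9 samples without *Keap1* lay below every LL2 WT and every *NRF2* KO sample. It fell in #2 (−1.24) and #3 (−1.32) on the log2 scale (standard error 0.27, adjusted p = 0.00383 and 0.00246). The value in #1, −0.82 (adjusted p = 0.0439), is under the size threshold, and *NRF2* KO had −0.25 (adjusted p = 0.792). It lies next to *Tnfsf13* on chromosome 11 (chr11:69682846-69695849, minus strand), and a readthrough gene, *Tnfsfm13*, spans both. Of the 31-base words of *Tnfsf12* 47.4% are shared, most often with *Tnfsfm13*, so its own level is uncertain. The sum of the 3 genes was 10.7 to 14.3 CPM in LL2 WT, 3.39 to 8.97 CPM in the *KEAP1* KO samples and 9.84 to 12.0 CPM in *NRF2* KO. Its receptor *Tnfrsf12a*, highest of the family, had 76.4 to 104 CPM in the *KEAP1* KO samples and 70.7 to 133 CPM in *NRF2* KO, overlapping the LL2 WT range, and was not called.

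Among the receptors not called in any comparison, *Tnfrsf1a* had 73.6, 63.9 and 84.3 CPM in LL2 WT, 72.9 to 91.8 CPM in the *KEAP1* KO samples and 54.6, 52.1 and 63.1 CPM in *NRF2* KO. The *NRF2* KO samples were the lowest and did not overlap the others, though the difference from LL2 WT was not called. *Ltbr* had 32.5 to 38.4 CPM in LL2 WT and 26.1 to 42.0 CPM over the 12 knockout samples, with #3 below every LL2 WT sample. *Tnfrsf10b*, the signaling TRAIL receptor, had 20.6, 29.9 and 27.7 CPM in LL2 WT and 37.3 to 41.2 CPM in *KEAP1* KO #2 and #3. *Eda2r*, the ectodysplasin A2 receptor, had 11.8, 22.9 and 26.8 CPM in LL2 WT, 21.9, 16.3 and 17.4 CPM in #1 and 33.1 to 36.4 CPM in #2 and #3. In #2 and #3 *Eda2r* and *Tnfrsf10b* had an adjusted p under 0.05 with log2 fold changes under 1, as had *Ltbr* in #3 (values from −0.31 to 0.89). *Eda2r* was called in #2 without LL2 WT replicate 2 or 3 and in #3 without LL2 WT replicate 3. With replicate 3 of every line left out *Eda2r* was called in both #2 and #3. *Tnfrsf18* (GITR) had a wide spread, with 2.74, 0.496 and 3.90 CPM in LL2 WT and 0.561 to 5.28 CPM in *NRF2* KO.

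Of the 6 tested members that stayed under 1 CPM in each line (*Cd27*, *Cd40*, *Tnfrsf1b*, *Tnfrsf4*, *Tnfsf13* and *Tnfsf13b*), 1 was called. *Cd40*, which drives activation of antigen-presenting cells, had 0.191, 0.116 and 0.271 CPM in LL2 WT, against 0.446, 0.757 and 0.753 CPM in *KEAP1* KO #1, above all other samples. In #1 it rose by 1.37 on the log2 scale (standard error 0.35, adjusted p = 0.0145), and it lost the call with a pseudocount of 0.5 or 1 CPM, with only 2 lines in the model and without #1 replicate 2 or 3. In #2 and #3 it was 0.27 and 0.26, not called.

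All 3 samples of a line lay above every LL2 WT sample for 5 members in *KEAP1* KO #1 (24.6% of all genes tested), 8 in #2 (23.4%), 8 in #3 (22%) and 1 in *NRF2* KO (8.68%). They lay below for 3 (12.4%), 5 (18.6%), 6 (18%) and 2 (4.53%) members in the same order. The 1 above in *NRF2* KO was *Tnfrsf1b*, the second TNF receptor, at 0.206 to 0.249 CPM against 0.155 to 0.201 CPM, and the 2 below were *Tnfrsf21* and *Tnfrsf1a*.

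Setting the mean of the *KEAP1* KO lines against *NRF2* KO takes LL2 WT out of the comparison and tests whether these lines differ. The p-values measure the spread between samples of a line and not between clones, and *NRF2* KO is 1 clone. Of 23 members 3 were called, against a background of 9.94% (5.19% higher, 4.75% lower). *Tnfrsf11a* was lower by 2.38 on the log2 scale (−2.38, standard error 0.33, adjusted p = 0.000137), *Tnfrsf23* was higher by 1.22 (standard error 0.23, adjusted p = 0.00162) and *Tnfrsf9* was higher by 1.93 (standard error 0.48, adjusted p = 0.00897). *Tnfrsf23* was not called without *NRF2* KO replicate 3, nor *Tnfrsf9* without *NRF2* KO replicate 1. Another 5 members, *Tnfrsf10b*, *Tnfrsf1a*, *Tnfrsf22*, *Tnfrsf26* and *Tnfsf12*, had an adjusted p under 0.05 with differences under 1, between −0.87 and 0.93. All 3 neighbors on chromosome 7 were thus on the higher side in *KEAP1* KO, with *Tnfrsf26* 0.60 higher (adjusted p = 0.0263) and *Tnfrsf22* 0.93 higher (adjusted p = 0.000486). *E230032D23Rik* overlaps all 3 on the opposite strand, and its part in their values was not tested. With the words shared by *Tnfrsf22* and *Tnfrsf23*, these are not 3 separate measurements.

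The *KEAP1* KO lines were then compared with each other by limma's F test. No member of 23 was called (0 calls, background 5.58%), while 6 had an unadjusted p under 0.05: *Cd40*, *Eda2r*, *Ltbr*, *Tnfrsf10b*, *Tnfrsf14* and *Tnfrsf9*. *Tnfrsf9* had the largest difference between line means, 2.14 on the log2 scale (adjusted p = 0.0678), and *Eda2r* (0.96, adjusted p = 0.0407) and *Ltbr* (0.45, adjusted p = 0.0191) passed the p but not the size. *Tnfrsf9* passed both with a pseudocount of 0.5 or 1 CPM, with rescaled or quantile-normalized values and with only these lines in the model. It also did so with a replicate block, with a term for replicate 3 or replicate 3 left out, and without LL2 WT replicate 2 or 3. *Cd40* passed both with quantile normalization, with the block, with a term for replicate 3 and without *KEAP1* KO #3 replicate 3. *Eda2r* did so with rescaled or quantile-normalized values. The longer lists of calls in #2 and #3 than in #1 are counts past a threshold and were not tested as a difference for each member.

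Signaling downstream of the receptors was followed with 63 tested genes in 6 lists: adaptors and caspase regulators, ubiquitin editors, kinases, cell death effectors, ligand shedding and processing, and TNF-induced genes. Of these 8 were called in *KEAP1* KO #1 (background 8.54%), 6 in #2 (13.7%), 10 in #3 (13.4%) and 1 in *NRF2* KO (0.464%). The median log2 fold change of the 63 genes was 0.20, 0.18, 0.31 and 0.01. None of the 10 ubiquitin editors was called in a *KEAP1* KO line (background 8.54% to 13.7%). *Cyld* and *Spata2* in #1, *Otulin* in #2 and #3 and *Spata2* in #3 had an adjusted p under 0.05 with changes under 1. Of 14 TNF-induced genes 3 to 4 were called, against the same background. A difference between the lists was not tested. Called the same way in all 3 *KEAP1* KO lines were *Ikbkg*, *Traf1* and *Ccl20* (higher, 3 of 63, background 2.86%) and *Vcam1* (lower, 1 of 63, background 2.63%).

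*Traf1*, an adaptor that binds TNFRSF9 and other receptors and is itself induced by NF-kB, had 0.194, 0.154 and 0.0993 CPM in LL2 WT. It stood at 0.850, 1.14 and 3.94 CPM in *KEAP1* KO #1, 2.75, 1.82 and 3.37 CPM in #2, 3.39, 4.11 and 3.89 CPM in #3 and 0.153, 0.378 and 0.797 CPM in *NRF2* KO. The *KEAP1* KO samples were all above every other sample. *Traf1* rose by 2.77, 3.44 and 3.98 on the log2 scale (standard error 0.52, adjusted p = 0.00228, 0.000306 and 9.53e-05), against 0.95 in *NRF2* KO (adjusted p = 0.546). *Ccl20*, a chemokine that TNF induces, was at or near 0 in LL2 WT (0.114, 0 and 0 CPM) and *NRF2* KO (0, 0 and 0.193 CPM) and at 0.742 to 2.94 CPM in the 9 *KEAP1* KO samples. Fitted differences of 3.74, 3.02 and 4.05 on the log2 scale in #1, #2 and #3 passed the test (standard error 0.54, adjusted p = 0.000363, 0.00101 and 0.000106), and their size depends on the pseudocount because LL2 WT is at the floor. Its call in #2 was lost with a pseudocount of 1 CPM (0.92). *Vcam1*, an adhesion molecule also known as TNF-induced, went the other way. It had 118, 98.0 and 154 CPM in LL2 WT, 37.7, 26.5 and 47.0 CPM in #1, 7.71, 7.97 and 16.1 CPM in #2, 6.09, 5.95 and 13.0 CPM in #3 and 85.0, 57.4 and 97.5 CPM in *NRF2* KO, so that no *KEAP1* KO sample reached the others. On the log2 scale this was −1.75, −3.59 and −3.94 (standard error 0.36, adjusted p = 0.00376, 1.06e-05 and 4.15e-06), and −0.63 in *NRF2* KO (adjusted p = 0.559). The TNF-induced list therefore held changes in both directions, and its median log2 fold change was 0.55, 0.38 and 0.64 in the *KEAP1* KO lines.

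*Ikbkg* encodes NEMO, the regulatory subunit of the IKK complex through which TNF receptors reach NF-kB (chrX:74393290-74453854, plus strand). It had 16.7, 15.8 and 16.7 CPM in LL2 WT, against 15.4, 14.3 and 18.6 CPM in *NRF2* KO. It had 122, 134 and 115 CPM in *KEAP1* KO #1, 104, 106 and 97.2 CPM in #2 and 139, 139 and 142 CPM in #3, with no overlap. *Ikbkg* rose by 2.91, 2.64 and 3.09 on the log2 scale (standard error 0.10, adjusted p = 7.65e-10, 2.19e-09 and 3.45e-10), and was at −0.03 in *NRF2* KO (adjusted p = 0.936). *Ikbkg* overlaps *G6pdx*, an NRF2 target of the pentose phosphate pathway, on the opposite strand, and 5.81% of its 31-base words are shared, most often with *G6pdx*. *G6pdx* had 61.9 to 84.2 CPM in LL2 WT, 140 to 255 CPM in *KEAP1* KO and 51.4 to 53.0 CPM in *NRF2* KO. Its order among the lines differed from that of *Ikbkg*: *KEAP1* KO #2 was highest for *G6pdx* and lowest of the *KEAP1* KO lines for *Ikbkg*. Since the counting is not stated to use strand, the reads of the pair cannot be fully told apart, and their sum was 78.6 to 101 CPM in LL2 WT, 274 to 365 CPM in *KEAP1* KO and 66.8 to 71.6 CPM in *NRF2* KO.

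The remaining signaling genes called in at least 2 *KEAP1* KO lines were chosen after their values were seen. *Nfkbia*, the NF-kB inhibitor that NF-kB itself induces, had 29 to 31 CPM in LL2 WT and 50.7 to 85.8 CPM in the 9 *KEAP1* KO samples, with log2 fold changes of 0.97, 1.23 and 1.01 (adjusted p from 0.000205 to 0.00181), called in #2 and #3. The value in #3 sits at the threshold and lost the call under 7 alternatives, with values from 0.90 to 1.00. *Bid*, which links death receptors to mitochondria, had 6.08 to 15.2 CPM in LL2 WT and 17.8 to 24.3 CPM in *KEAP1* KO, and was called in #1 (1.04) and #3 (1.21). Without LL2 WT replicate 3 both calls were lost (0.69 and 0.86), as they were with replicate 3 of every line left out, and the one in #1 also with a pseudocount of 1 CPM, with rescaled values and with only the lines compared in the model. Of the 31-base words of *Bid* 16.9% also occur in other genes, most often in *Bcl2l13*, which overlaps it on the opposite strand. *Traf5*, an adaptor of CD40 and other receptors, had at least 7.5 CPM in LL2 WT and 2.35 to 4.66 CPM in #2 and #3, where it fell (−1.61 and −1.54, adjusted p = 0.000709 and 0.000916). For *Traf5* the share is 11.4%, most often with *Gm26879*, which also overlaps on the opposite strand, so both levels are less certain. *Traf5*, *Vcam1* and the kinase gene *Map3k5* were also called among the *KEAP1* KO lines (3 of 63, background 5.58%). In *NRF2* KO the called gene was *Otulin*, which removes linear ubiquitin chains, with 30.7, 35.2 and 18.3 CPM in LL2 WT, against 55.7, 61.3 and 47.1 CPM in *NRF2* KO. Its log2 fold change of 1.00 (adjusted p = 0.0485) lost the call under most alternatives and was 0.72 without LL2 WT replicate 3.

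**Figure D4:**
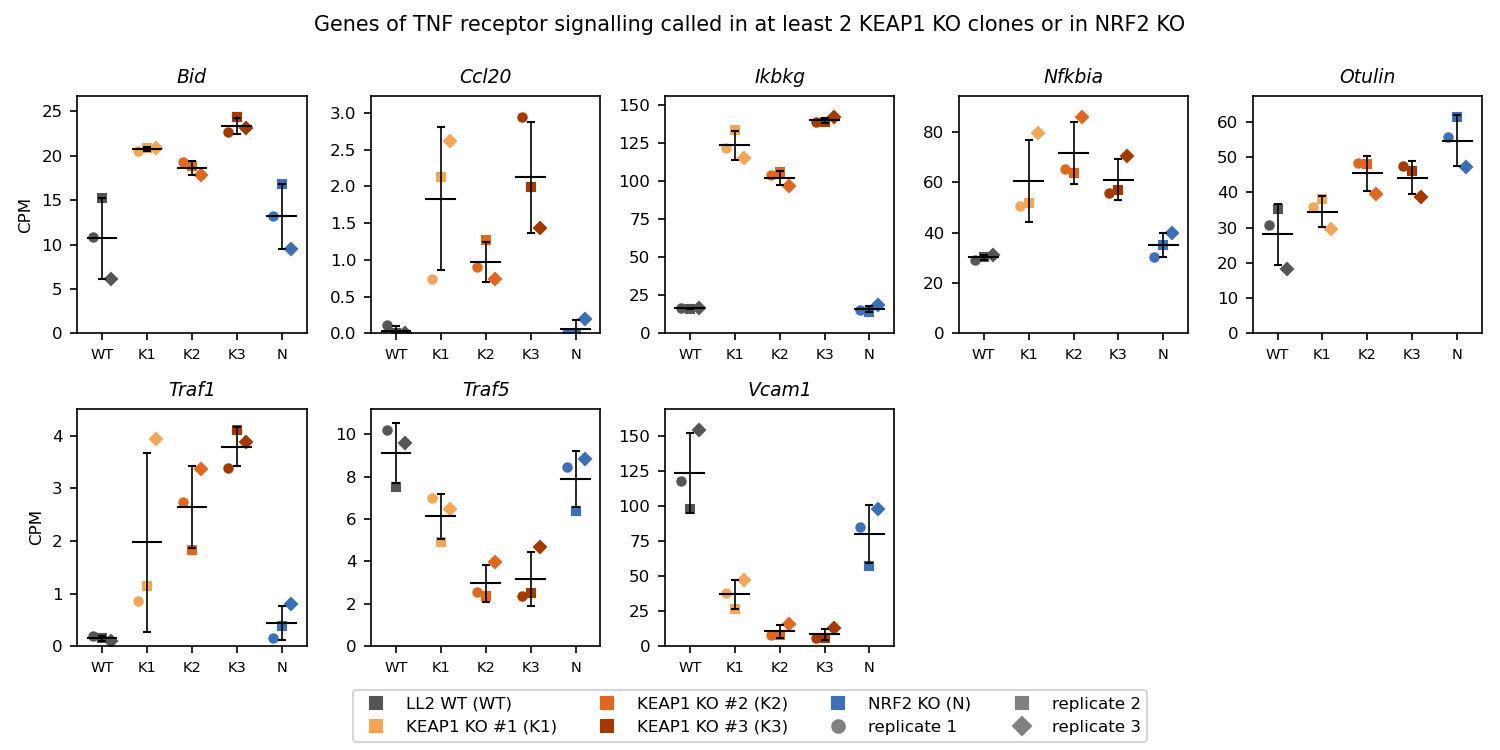
CPM of 8 genes of TNF receptor signaling in each of the 15 samples (linear axes from 0), with markers and bars as in the plot of the members by sample. *Ikbkg* lies between 97.2 and 142 CPM in the *KEAP1* KO lines and under 20 CPM in LL2 WT and *NRF2* KO, *Traf1* and *Ccl20* are near 0 in LL2 WT, and *Vcam1* and *Traf5* are lowest in #2 and #3.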

How the data were processed

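RNA of 5 LL2 lines (3 samples each, 15 in all) was sequenced. The authors deposited CPM per gene symbol, made from KAPA mRNA HyperPrep libraries with Kallisto against GRCm38.p6 cDNA as the study's methods state, while the submitters' processing notes name GRCm39 with bcl2fastq 1.9.0 and kallisto. The values are not whole reads, so no count model was used. Whether the counting used strand is not given in the sources used here. Groups and replicate numbers come from the sample titles. The labels call the replicates biologic triplicates without saying how they were separated, so p-values measure the spread between these samples.

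Entries without a symbol (1) were left out. The 14652 genes whose CPM summed to 3 or more were compared on the log2(CPM + 0.1) scale by limma 3.58.1 in R 4.3.3, with 1 mean per line, all 15 samples, no further term, empirical Bayes with trend, Benjamini-Hochberg adjustment over all genes tested, and calls at an adjusted p under 0.05 with an absolute log2 fold change over 1. Fold changes are of CPM + 0.1, which understates those of low genes. The code was tested on simulated data with known changes. These were planted only in genes with higher levels than *Fas*, *Ngfr*, *Tnfrsf9*, *Tnfrsf14*, *Tnfrsf11a* and *Cd40* have in LL2 WT. They were also larger than many of the changes called here, so the simulation does not cover low genes or small changes. Alternatives were pseudocounts of 0.5 and 1 CPM, no filter, at least 1 CPM in 3 samples, rescaling by the median ratio, quantile normalization, only the lines compared, a replicate block and leaving out each sample. A term for replicate 3, leaving out replicate 3 of every line and the bound for *Ngfr* with an LL2 WT sample left out were chosen after seeing the data.

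Levels in every sample are given for members with a mean of at least 1 CPM in some line, fold changes for those called, and values of signaling genes called the same way in all 3 *KEAP1* KO lines or in *NRF2* KO. An item of the signaling lists is not reported here and was left out of their counts. The members and lists were chosen with earlier results of these data known. Positions, transcript lengths and shared 31-base words come from GENCODE M21 (GRCm38.p6), promoters from RefSeq. Python 3.11.15 with pandas 2.3.3, numpy 2.4.6 and matplotlib 3.10.9 was used.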

Additional observations from a re-analysis of the deposited data

How the results depend on the processing

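The depth of each sample is unknown, so statements on members under 1 CPM rest on few reads. A tally was made for the members of at least 1 CPM that were called in some comparison. Their 26 called fold changes were recomputed under each alternative. Of 648 values 618 kept direction and call, 30 lost the call and 0 reversed. Of the 472 values for their fold changes not called, 9 gained a call and 7 reversed. *Cd40* and *Eda2r*, whose changes of call are given with their levels, lie outside this tally. The signaling genes tallied were those called the same way in at least 2 *KEAP1* KO lines or called in *NRF2* KO. Their 24 called fold changes gave 600 values, of which 46 lost the call and 0 reversed. Of their 400 values not called 3 gained a call and 5 reversed. *Ngfr* could not be fitted with at least 1 CPM asked in 3 samples, since it did not pass that filter.

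The number of members called in *KEAP1* KO #1 (5) was 3 with a pseudocount of 1 CPM and with only the lines compared in the model, and 3 to 6 when 1 sample was left out. It was 3 without *KEAP1* KO #1 replicate 3. In *KEAP1* KO #2 and #3 it was 8 to 10 in each when 1 sample was left out. In *NRF2* KO (1) it was 0 with quantile normalization, with only the lines compared and with replicate 3 of every line left out, and 0 to 1 when 1 sample was left out. It was 0 without LL2 WT replicate 1 or 3 and without *NRF2* KO replicate 1 or 2. Among the *KEAP1* KO lines (0) it was 1 with a pseudocount of 0.5 or 1 CPM, 2 with rescaling by the median ratio, 3 with quantile normalization, 1 with only these lines, 2 with a term for replicate 3, 1 with replicate 3 of every line left out and 0 to 1 when 1 sample was left out. Signaling genes called in *KEAP1* KO #1 (8) were 5 with only the lines compared. In *NRF2* KO (1, *Otulin*) they were 0 with either pseudocount, with either filter, with rescaling, with quantile normalization, with only the lines compared and with replicate 3 left out, 2 with a term for replicate 3, and 0 to 1 when 1 sample was left out. The cause of these shifts was not tested. In *KEAP1* KO #1 the middle value over all genes was 0.11 on the log2 scale and 0.01 after rescaling, and no called fold change of a member reversed.

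With the replicate block, 2 members, *Cd40* and *Tnfrsf9*, differed among the *KEAP1* KO lines and 2 signaling genes were called in *NRF2* KO, and *Ngfr* gained a call in *KEAP1* KO #1. The block changed no other call of a member. Over 11676 genes, deviations from the line means had a median r of 0.276 for samples with the same number in different lines (30 pairs). Their r ran from −0.0221 to 0.631, and the median was −0.192 for different numbers (60 pairs). Samples with the same number were thus more alike at the median, but not in every pair. The numbers were not taken as pairs in the main fit for this last reason, and the calls that changed with the block are given above.

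These differences reversed, and none of them was called. *Tnfrsf21* between the *KEAP1* KO lines and *NRF2* KO (−0.07, from −0.18 to 0.09 when 1 sample was left out) was 0.09 without *NRF2* KO replicate 3 and 0.18 with replicate 3 of every line left out. *Tnfrsf22* in *NRF2* KO (0.09, from −0.05 to 0.17) was −0.03 without LL2 WT replicate 1 and −0.05 without *NRF2* KO replicate 2. *Tnfrsf9* in *NRF2* KO (0.13, from −0.55 to 0.84) was −0.01 with a pseudocount of 1 CPM, −0.55 without LL2 WT replicate 2 and −0.27 without *NRF2* KO replicate 3. *Ccl20* in *NRF2* KO (0.15, from −0.37 to 0.52) was −0.03 without LL2 WT replicate 2 or 3, −0.37 without *NRF2* KO replicate 3 and −0.55 with replicate 3 of every line left out, and *Ikbkg* there (−0.03, from −0.14 to 0.05) was 0.05 without *NRF2* KO replicate 2.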

Other observations

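A pair of relatives fell outside the symbol rule. *Relt*, a TNF receptor superfamily member without a number in its symbol, had 1.39, 1.38 and 0.207 CPM in LL2 WT. It stood at 1.76, 2.58 and 2.60 CPM in *KEAP1* KO #1, 1.47, 1.80 and 1.41 CPM in #2, 2.02, 2.2 and 1.89 CPM in #3 and 0.67, 1.6 and 1.19 CPM in *NRF2* KO. Each sample without *Keap1* exceeded the parental ones, but the log2 fold changes of 1.44, 0.91 and 1.28 (adjusted p from limma 0.0546, 0.185 and 0.0686) were not called. In LL2 WT replicate 3 stood apart from the other two.

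*Tnfsfm13*, the readthrough gene over *Tnfsf12* and *Tnfsf13*, had 3.55, 2.5 and 4.19 CPM in LL2 WT. The 9 *KEAP1* KO samples, at 0.476 to 1.84 CPM, were all lower. It fell by 1.25, 1.97 and 1.95 on the log2 scale (adjusted p from limma 0.0326, 0.00187 and 0.00191) and was −0.37 in *NRF2* KO, not called. It shares 73.8% of its 31-base words with other genes, so its level and that of *Tnfsf12* are not separate measurements.

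The family is clustered in the genome. Besides the 3 receptors on chromosome 7, *Ltb*, *Tnf* and *Lta* lie within 10.9 kb of chromosome 17 and all stayed under 1 CPM in every line, and *Tnfsf9*, *Cd70* and *Tnfsf14* lie within 88.9 kb of the same chromosome, where *Tnfsf9* reached 3.60 to 7.62 CPM while the other 2 were listed at 0 in all samples. On chromosome 6, *Cd27* (0.120 to 0.616 CPM), *Ltbr* (26.1 to 42.0 CPM) and *Tnfrsf1a* (52.1 to 91.8 CPM) lie within 130 kb.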
